A study of Homo sapiens with 2 samples.

Results

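Chromosome 16 carried 1152 of the 24824 KMT2D peaks listed for OCI-LY7 cells (4.64%), and these were split by the position of their highest point into segments along its arms. The short-arm end (0 to 5 Mb) held 191 peaks and the short-arm interior (5 to 35 Mb) held 394. The long-arm interior (46 to 85 Mb) held 357 and the long-arm end (85 Mb to the last peak, which ended at base 90143977) held 210. No peak was listed from 35 to 46 Mb, so these 4 segments account for every peak. OCI-LY7 is an established lymphoma line of the GCB-DLBCL type, a B-cell lymphoma that resembles germinal centre cells, wild type in genotype per the labels, and the peaks come from 1 chromatin immunoprecipitation library made with an antibody against the N-terminus of KMT2D; 1 input library without antibody was also made. Cells were fixed in 1% formaldehyde for 10 min. A single library leaves every value below without a replicate, and the segments were compared without a test. The depth of the library is unknown, and intervals are 95% intervals that cover counting error over peaks only. They treat peaks as independent, although many lie in clusters, so they are likely too narrow. Positions are on hg19, as the list gives them.

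KMT2D, also called MLL4, is a methyltransferase that places the H3K4me1 mark at enhancers and works together with the acetyltransferases that activate them. It is recurrently inactivated in lymphomas of germinal centre origin. Chromosome 16 is gene-rich for its size, with most of its genes crowded near the ends and in a few bands between gene-poor stretches. Its short arm carries the alpha-globin genes and CREBBP, an acetyltransferase gene that is itself often mutated in these lymphomas, near the tip. Further in lies CIITA, the master regulator of MHC class II. The long arm carries PLCG2, a phospholipase of B-cell receptor signalling, and, toward its end, IRF8, a transcription factor of germinal centre B cells. The long arm starts with a large heterochromatin block beside the centromere. The genes are background only: no peak was assigned to a gene, because the gene table at hand is on another genome build.

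KMT2D peaks were crowded at both tips of chromosome 16. The short-arm end held 38.2 peaks per Mb (exact Poisson interval 33.0 to 44.0) and the long-arm end 40.8 (35.5 to 46.7). The short-arm interior held 13.1 peaks per Mb (11.9 to 14.5) and the long-arm interior 9.15 (8.23 to 10.2). Together the ends made up 11.3% of the length up to the last peak and held 401 peaks, or 34.8% of those on the chromosome.

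The short-arm end exceeded its own interior 2.91 times (exact conditional interval 2.43 to 3.47), and the long-arm end exceeded its interior 4.46 times (3.74 to 5.303). The ends did not differ from each other beyond counting error, with a ratio of long to short arm of 1.07 (0.874 to 1.31). Between the interiors, the short arm was 1.43 times as dense as the long arm (1.24 to 1.66). Peaks covered 2.74% of the bases of the short-arm end and 2.59% of the long-arm end, against 0.872% and 0.588% of the interiors.

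**Figure D1:**
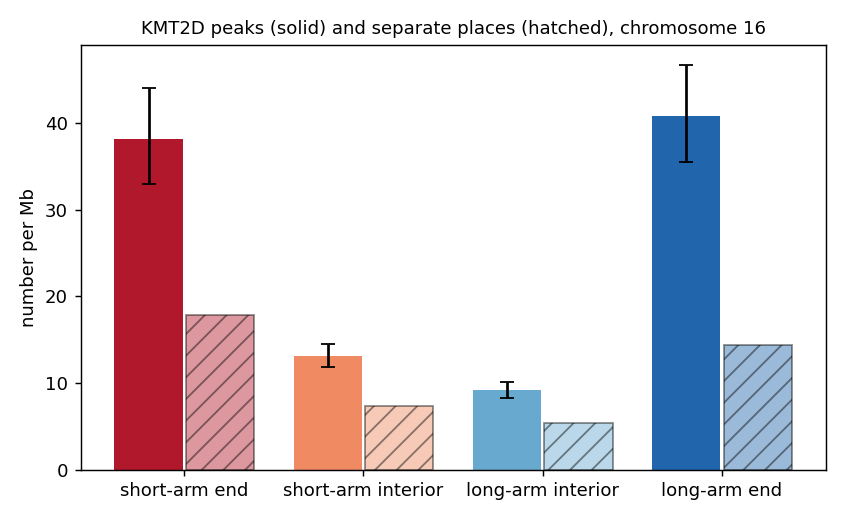
Number per Mb of KMT2D peaks (solid bars, with exact Poisson 95% intervals) and of separate places (hatched bars: lone peaks plus clusters, after joining peaks at most 12500 bp apart) in the 4 segments of chromosome 16. The long-arm end has the highest peak density (40.8) but fewer places per Mb (14.4) than the short-arm end (17.8). Neither difference between the ends exceeds counting error.

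The smallest listed peak was of nearly the same height all along the chromosome. Height is a whole number that the authors deposited for each peak, taken as its maximum signal in their units. The lowest was 22 in both short-arm segments, 24 in the long-arm interior and 23 at the long-arm end. The authors also deposited a negative number for each peak that resembles the log10 of a p-value, called the significance value here. Among peaks with heights from 28 to 32, the median of that number was -18.9 at the short-arm end (19 peaks), -19.6 in the short-arm interior (59), -19.3 in the long-arm interior (57) and -18.8 at the long-arm end (39). At these heights the medians of the segments lay within 1 unit of each other. Over all other autosomes the median for the same heights was -22.0 (2780 peaks).

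Even within the ends, peaks were unevenly spread. The 5 windows of 1 Mb at the short-arm end held 44, 27, 57, 39 and 24 peaks from the tip inward. All of them were thus above the short-arm interior's median of 9.5 peaks per window. At the long-arm end, the windows starting at 85, 86, 87, 88 and 89 Mb held 46, 7, 35, 39 and 71 peaks. The window from 89 Mb was the fullest of the chromosome, and the one from 86 Mb held fewer peaks than the median window of the short-arm interior. Beyond 90 Mb, 12 peaks lay within the 144 kb up to the end of the last peak. That is 83.3 per Mb, but the last peak itself sets this length, so the value is not a density of the chromosome's tip. The longest stretch without a peak ran from 3931188 to 4303409 at the short-arm end (372 kb) and from 86050340 to 86588478 at the long-arm end (538 kb).

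The interiors alternated between filled bands and near-empty stretches; the bands described here were chosen after the window counts were seen. Just inside the short-arm end, the stretch from 5 to 10 Mb held only 21 peaks (4.20 per Mb), and 1 window of it held none. From 10 to 13 Mb the density was 25.7 per Mb (77 peaks). It fell to 8 per Mb (64 peaks) from 13 to 21 Mb. The longest empty stretch between peaks of this segment ran from 7064498 to 8617669 (1.55 Mb). From 27 to 32 Mb, the innermost filled band of the short arm, it was 29.8 per Mb (149 peaks). The fullest interior window of the short arm, from 30 to 31 Mb, lay in that band and held 58 peaks, as many as the fullest window of the short-arm end to within 1 peak. Its peaks had a median height of 58, against 45 in the whole short-arm interior, which includes them. The window before it held 30 peaks with a median height of 43, and the window after it 15 peaks with a median of 60.

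Peaks thinned out sharply toward the centromere. Between 32 and 46 Mb a single peak was listed, at 33403686 to 33403868, 182 bp wide and of height 30. The nearest peaks on either side of it were 1518 kb away on the short arm and, across the centromere, 13.3 Mb away on the long arm. The list does not tell regions without binding from regions to which reads could not be assigned. On the long arm the first peak lay at 46654709 to 46655479, with a height of 53.

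The long-arm interior was the emptiest of the segments with peaks. Of its 39 windows of 1 Mb, 7 held no peak and 18 held 3 or fewer, and its median window held 4. Its longest empty stretch ran from 61077045 to 64355784 (3.28 Mb), and the 7 Mb from 59 to 66 Mb held 6 peaks. A filled band followed from 66 to 72 Mb, with 133 peaks or 22.2 per Mb, and contained the fullest window of the segment (67 to 68 Mb, 43 peaks). The window from 81 to 82 Mb held 37 peaks and stood alone: the window before it held 0 and the window after it 2. For comparison, the short-arm interior had 3 empty windows of 30. Over the whole chromosome, 14 of 91 windows (15.4%) held 50% of the peaks and 21 held none, 11 of them from 35 to 46 Mb. Across the 52 windows with at least 5 peaks, the number of peaks and their median height had a Spearman correlation of 0.18, a description over windows of 1 library.

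**Figure D2:**
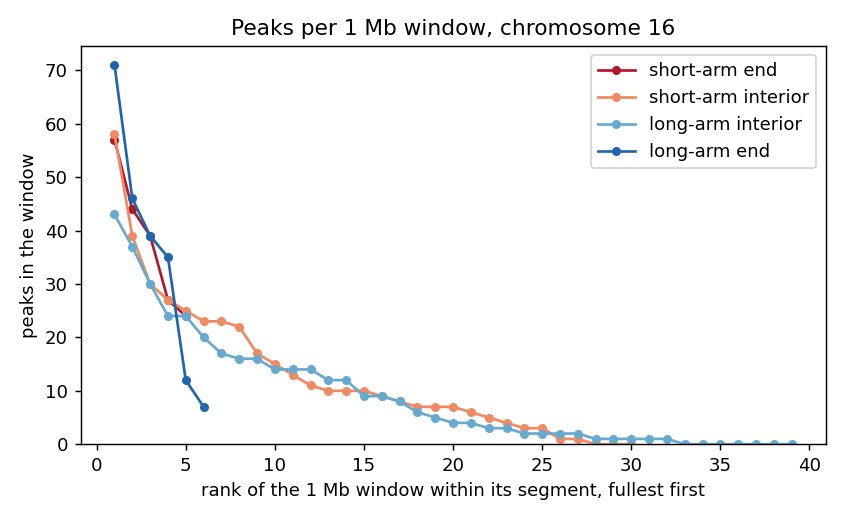
Number of KMT2D peaks in each 1 Mb window of chromosome 16 (vertical axis), with the windows of each segment ordered from the fullest (horizontal axis, rank). The fullest windows of the short-arm end (57 peaks) and of the short-arm interior (58) are alike, but the interiors run out to windows with 0 peaks and the ends do not.

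The ends did not differ in density beyond counting error, but a larger share of the peaks at the long-arm end lay in clusters. At the long-arm end the median distance from a peak to the next was 4.54 kb (order-statistic interval 3.02 to 8.30), and at the short-arm end it was 10.9 kb (7.62 to 14.2), with intervals that overlapped slightly. In the interiors it was 16.2 kb (12.7 to 21.4) on the short arm and 22.2 kb (14.3 to 27.7) on the long arm. Distances under 1 kb made up 26.8% of those at the long-arm end (exact binomial interval 20.9 to 33.3%). They made up 19.5% at the short-arm end (14.1 to 25.8%), 16.3% in the short-arm interior (12.8 to 20.3%) and 16.6% in the long-arm interior (12.9 to 20.9%). No neighbouring peaks anywhere in the list were closer than 101 bp.

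Peaks at most 12500 bp apart were joined into clusters, and a peak without such a neighbour is called lone. Clusters took in 85.7% of the peaks at the long-arm end (180 of 210; 80.2 to 90.1%) and 73.8% at the short-arm end (141 of 191; 66.99 to 79.9%). The interiors had 63.5% (58.5 to 68.2%) on the short arm and 61.6% (56.4 to 66.7%) on the long arm. The intervals of the ends did not overlap. A denser segment has more clustered peaks by its density alone, and the part of density in this difference was not tested. At a joining distance of 5 kb the ends stood at 74.3% (long arm) and 50.3% (short arm), and the short-arm end was then level with the short-arm interior, also at 50.3%. Among the highest-scoring 50% of the list's peaks the ends stood at 64.0% (54.5 to 72.8%) and 53.7% (44.4 to 62.7%), and at the segments' common minimum height of 24 they stood at 83.98% (78.2 to 88.7%) and 73.3% (66.3 to 79.5%). In both of these the order held but the intervals overlapped, as they did at a joining distance of 25 kb, while after peaks under 500 bp apart were merged they stayed apart (73.7 to 86.2% and 57.8 to 72.9%).

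Larger clusters showed the same contrast. Clusters with at least 5 peaks (a cutoff set after the values were seen) held 45.7% of the peaks at the long-arm end (38.8 to 52.7%) and 28.8% at the short-arm end (22.5 to 35.8%). In the interiors they held 28.9% (24.5 to 33.7%) on the short arm and 16.8% (13.1 to 21.1%) on the long arm. The numbers of such clusters were 15, 7, 17 and 8 in the same order. With so few clusters, intervals that count each peak separately are again too narrow. Counted as separate places, that is lone peaks plus clusters, the long-arm end had 14.4 per Mb and the short-arm end 17.8, a ratio of 0.808 (0.586 to 1.11), so the ends did not differ in places per Mb beyond counting error either. The ends still exceeded their interiors in places per Mb, 2.70 times on the long arm (2.04 to 3.53) and 2.44 times on the short arm (1.88 to 3.13). Both were less than the ratios found for peaks, 4.46 on the long arm and 2.91 on the short arm. Joining at a fixed distance takes more from the count of a denser segment by its density alone. The part of density in these drops was not tested.

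**Figure D3:**
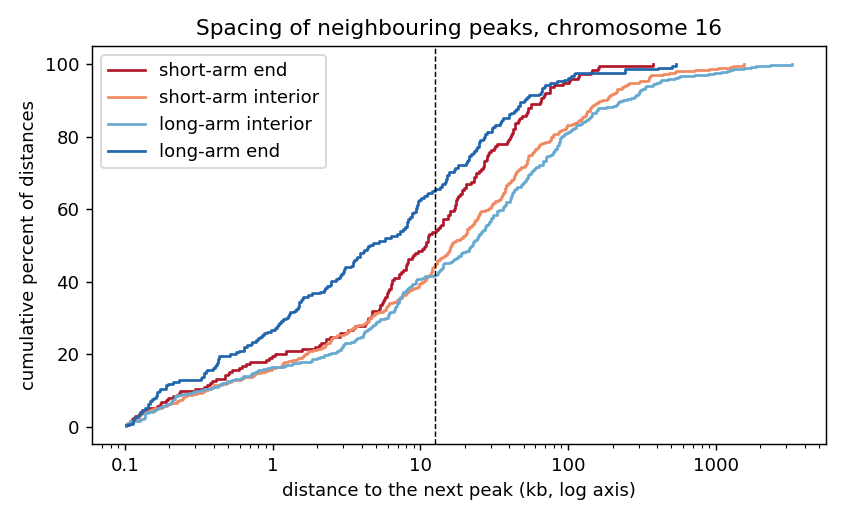
Cumulative share of the distances between neighbouring KMT2D peaks (horizontal axis, kb, log scale) within each segment of chromosome 16; the dashed line marks 12500 bp. The curve of the long-arm end lies above the others up to the line, with 26.8% of its distances under 1 kb, and the curves of both interiors run out to distances above 1000 kb.

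The largest cluster of each segment held 10 to 13 peaks and the next held 9. Where several clusters of 9 tied, the one with the shortest span is described first and the others are given after it. At the short-arm end, 13 peaks lay at 717779 to 791470. They spread over 73.7 kb, covered 14.5% of it and had a median height of 63. The next, 9 peaks at 2009191 to 2060344 with a tallest peak of 122, was also thinly filled (13.1% of 51.2 kb).

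In the short-arm interior, 10 peaks at 11758841 to 11783204 lay within 24.4 kb and were low, with a median height of 31.5. Another 9 lay at 14379053 to 14405177, within 26.1 kb and with a median height of 38. A second cluster of 9, at 30381379 to 30441970, was spread over 60.6 kb and had taller peaks, with a median height of 59. In the long-arm interior the largest cluster fell in the isolated 81 to 82 Mb window. It held 10 peaks at 81830941 to 81871335, with a median height of 58 and no peak below 39. Of 3 clusters of 9 peaks in this segment, 1 lay in the same window, 44.4 kb away, at 81763231 to 81786533. It spanned 23.3 kb and had a median height of 38 and a lowest peak of 25. The other clusters of 9 lay in the band from 66 to 72 Mb. One, at 67548181 to 67597694, spanned 49.5 kb and reached a height of 152, and one at 70437937 to 70473744 spanned 35.8 kb and reached 125.

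At the long-arm end, 12 peaks at 89032038 to 89060078 covered 33.7% of 28.04 kb, the most densely filled of the 8 clusters compared here (the largest and the shortest of the next largest in each segment). Its heights ranged from 25 to 126 with a median of 35. The other, 9 peaks at 88847565 to 88879032, covered 24.5% of 31.5 kb. In these clusters 6 of the 11 and 4 of the 8 distances between neighbours were under 1 kb. Joining peaks under 500 bp apart left 6 of the 12 and 5 of the 9. By the same step the 13 and 9 peaks of the short-arm end became 12 and 8. The interior clusters were also close-set: those of 10 peaks became 7 on both arms, and those of 9 described first became 6 on the short arm and 7 on the long arm.

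Peak heights overlapped widely between the segments. The median height was 40 at the long-arm end (order-statistic interval 38 to 44; interquartile range 30 to 61) and 49 at the short-arm end (42 to 54; 34 to 70). The interiors lay between, at 45 on the short arm (43 to 49) and 44 on the long arm (40 to 48). The intervals of the ends overlapped between 42 and 44, and those of the long-arm end and interior overlapped as well. No interval was computed for the gap of 9 between the medians of the ends, so whether it exceeds counting error was not tested. The order of the long-arm end and interior was not stable. With bounds at 4 and 86 Mb both had a median of 42, and among the highest-scoring 50% of peaks the long-arm interior was lower, at 58 against 59.5. Peaks of height 30 or less made up 27.6% at the long-arm end (21.7 to 34.2%), against 17.3% at the short-arm end (12.2 to 23.4%), 20.6% in the short-arm interior and 18.5% in the long-arm interior. The intervals of the long-arm end and of each other segment overlapped. Over all other autosomes such peaks made up 33.4% (32.8 to 34.1%) and the median height was 40. The lowest listed height there was 15, against 22 on chromosome 16. Tall peaks, of height 100 or more, made up 8.38% at the short-arm end (4.86 to 13.2%) and 6.67% at the long-arm end (3.69 to 10.9%). They made up 6.85% in the short-arm interior and 4.20% in the long-arm interior, and the intervals of the segments all overlapped. The share of such tall peaks over all other autosomes was 4.13%.

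Median widths had the same order, as width and height went together in every segment (Spearman correlations of 0.85 to 0.88 across peaks, which share 1 library). The median width was 695 bp at the short-arm end (604 to 768), 628 bp in the short-arm interior (570 to 670), 583 bp in the long-arm interior (530 to 633) and 550.5 bp at the long-arm end (463 to 631). Peaks over 1000 bp made up 25.1% at the short-arm end (19.1 to 31.9%) and 18.3 to 19.3% in the other segments. Peaks of up to 200 bp made up 16.8 to 20.8%, with no segment apart from the rest. The highest point lay at a median of 47.15 to 48.2% of the way from start to end, and in 3 of the 4 segments the interval of the median reached 50%.

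**Figure D4:**
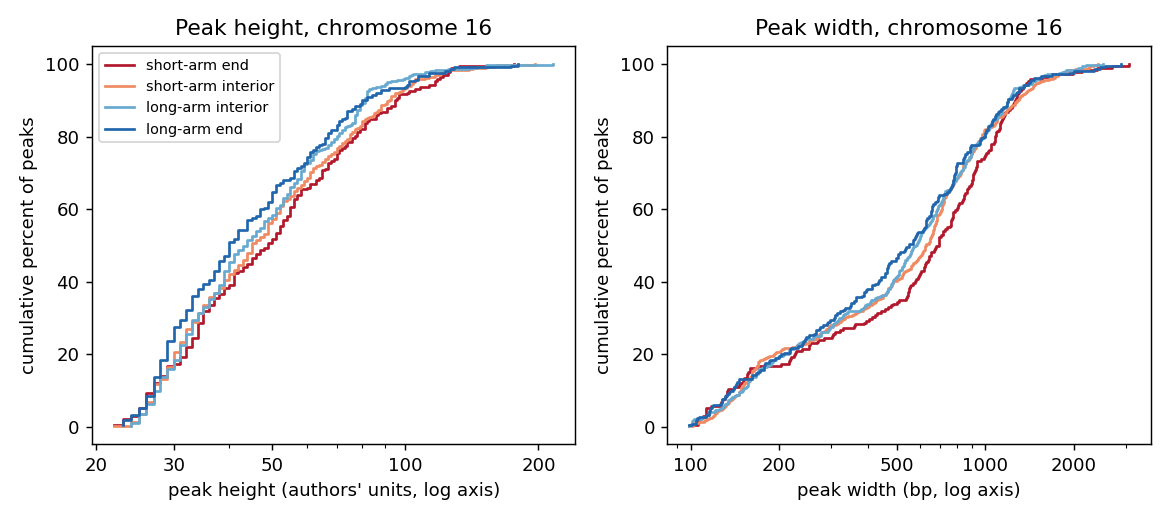
Cumulative share of KMT2D peaks by height (left, authors' units, log axis) and by width (right, bp, log axis) in the 4 segments of chromosome 16. The long-arm end lies furthest left at its median height of 40 and the short-arm end furthest right at 49; the widths have the same order at the middle of the curves, from 550.5 to 695 bp.

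Lone peaks had higher median heights than clustered ones in each segment. In the long-arm interior the medians were 51 for lone peaks (46 to 57) and 39.5 for clustered peaks (38 to 44), with intervals apart. At the long-arm end they were 54.5 (38 to 70, 30 lone peaks) and 40 (37 to 44). On the short arm they were 53 and 46 at the end, and 49 and 44 in the interior. Outside the long-arm interior the intervals overlapped. Among lone peaks alone, the intervals of the segments all overlapped, with medians from 49 to 54.5.

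The tallest peak of chromosome 16 was in the long-arm interior, at 68481825 to 68483041, reaching a height of 216, or 4.91 times its segment's median. It was 1 of only 2 on the chromosome listed at minus infinity for significance. The other, the tallest of the short-arm interior, lay at 29910839 to 29912011 with a height of 196 and stood alone, 25.1 kb from its nearest neighbour. At the long-arm end the tallest peak, at 87984171 to 87985471, reached 180 and was also lone, with 40.9 kb to its neighbour. That of the short-arm end, at 3018367 to 3020756, reached 176, was 2389 bp wide and belonged to a cluster of 3. The 2 tallest peaks of the chromosome were thus in the interiors, which held 34.2% (short arm) and 31.0% (long arm) of its peaks.

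Peaks of equal height could carry quite different significance values. In the long-arm interior, the peak at 49191763 to 49192557 and the one at 67580706 to 67582753 both had a height of 152. The first was 794 bp wide and had a significance value of -160. The other was 2047 bp wide, had a value of -82.4 and sat in a cluster of 9. In the short-arm interior, peaks at 30932882 to 30935152 (height 159) and 30968247 to 30969730 (height 160) lay only 33.1 kb apart, with values of -148 and -94.6. The authors' score, a positive number per peak, differed likewise, at 100.2 and 67.03. The second and the third tallest at the short-arm end lay at 1238333 to 1239358 (height 132, lone) and at 3637334 to 3638270 (height 127, in a cluster of 6).

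The widest peaks were not the tallest. At the short-arm end the widest ran from 4321175 to 4324239, with 3064 bp and a height of 88, and was lone. In the short-arm interior it ran from 30669159 to 30671581 (2422 bp, height 88), with its highest point only 10.0% of the way from its start. In the long-arm interior it ran from 54962317 to 54964836, was lone, and at 2519 bp had a height of 46, close to the segment's median. At the long-arm end the widest peak, 2897 bp at 89988774 to 89991671 with a height of 63, was separated by 0.396 kb from the second tallest of the segment, at 89992067 to 89993349 with a height of 173. The third tallest there, at 89103687 to 89104707 with a height of 129, lay 0.132 kb from its neighbour.

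The segment bounds are positions and did not cut through a cluster. At 5 Mb, the last peak before the bound was at 4896940 to 4898332 (height 54) and the first after it at 5007937 to 5008796 (height 105), both lone. At 85 Mb, a peak at 84906551 to 84906846 (height 36, in a cluster of 2) and a lone peak at 85044732 to 85045518 (height 74) lay on either side. At 35 and at 46 Mb, the nearest peaks were the 2 already given beside the centromere.

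Set beside the other autosomes, both ends of chromosome 16 were among the densest of their kind. As a whole it had the fourth highest density of the 22 autosomes, 12.8 peaks per Mb from its first to its last peak, after chromosomes 19, 22 and 17. That span counts the 13.3 Mb without a peak across the centromere, whereas the span of chromosome 22 began only at base 17395950. The first 5 Mb were compared on 17 autosomes, leaving out chromosomes 13, 14, 15, 21 and 22, whose short arms are largely unassembled, and the last 5 Mb up to the last listed peak on all 22. By that measure the long-arm end of chromosome 16 had 41.2 peaks per Mb. The short-arm end, at 38.2, was the second densest of 17, after chromosome 19 (51; ratio of chromosome 16 to 19 0.749, 0.618 to 0.907). The median of the 17, chromosome 16 included, was 13.8, and the interval of the ratio put chromosome 16 above 15 of the other 16. The closest of these was chromosome 4 (30; ratio 1.27, 1.02 to 1.59). Such narrow cases may not hold, since these intervals take peaks as independently placed.

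The long-arm end was the second densest of 22, after chromosome 17 (41.8), from which it did not differ beyond counting error (ratio 0.986, 0.809 to 1.20), nor from chromosome 9 (36.4; ratio 1.13, 0.923 to 1.39). By the interval of the ratio it was above the other 19, of which chromosome 21 came closest (33.2; ratio 1.24, 1.01 to 1.53). The median of the 22 was 16.6. On chromosome 17 the short-arm end held 25.2 peaks per Mb, on chromosome 19 the long-arm end held 28.6, and on chromosome 9 the short-arm end held 4.40. Ranked by the less dense of its ends, a measure chosen after the values were seen, chromosome 16 was first of the 17, and its 38.2 was 1.34 times the 28.6 of chromosome 19 (1.07 to 1.67). It was also first among the highest-scoring 50% of peaks, where the gap shrank to 22.6 against 21.8.

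Lowest listed heights differed between chromosomes, with 22 on chromosome 16 and 26 on chromosome 19. At the ends compared they ran from 15 (short-arm end of chromosome 4) to 28 (long-arm end of chromosome 19). At a minimum height of 26 on every chromosome, both ends of chromosome 16 were again the second densest of their kind, and the less dense of its ends again ranked first, at 36.2 against 28.6. Relative to the rest of the same chromosome, which held 9.42 peaks per Mb, the short-arm end was 4.05 times and the long-arm end 4.37 times as dense. That rest includes the 13.3 Mb without a peak across the centromere, which lowers its density. Against the interior of the same arm, the end segments were 2.91 times (short arm) and 4.46 times (long arm) as dense. The ratios of 4.05 and 4.37 ranked seventh and sixth among the 39 ends compared, whose ratios ran from 0.243 to 8.86. For chromosomes 13, 14, 15, 21 and 22 the rest was counted only from the first listed peak, on chromosome 22 at base 17395950. The highest ratio, 8.86, was that of the long-arm end of chromosome 21, which was counted in this way. These ranks therefore do not compare like with like.

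**Figure D5:**
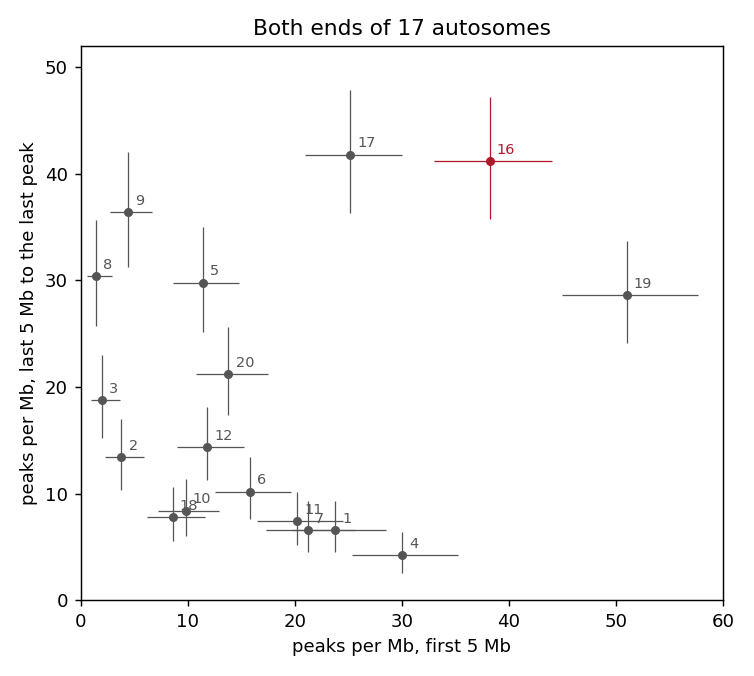
Peaks per Mb in the first 5 Mb (horizontal axis) and in the last 5 Mb up to the last peak (vertical axis) of 17 autosomes, each labelled by its number, with exact Poisson 95% intervals; chromosome 16 is red. Chromosome 16 lies at 38.2 and 41.2, chromosome 19 at 51 and 28.6, chromosome 17 at 25.2 and 41.8, and chromosome 9 at 4.40 and 36.4.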

How the data were processed

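The data were 1 list of peaks with 11 columns and no header, made by the authors from the KMT2D library. The submitters' processing notes name CASAVA 1.8.2 and the hg19 build. Which aligner and peak caller were run, with which threshold and use of the input, is not given in the sources used here. Column meanings were worked out from the values. The authors deposited a signal column (whole numbers, read as height), a score and a score-like significance value, whose scales are not stated, and where the highest point lies as a percent of peak width. These serve only to describe and rank peaks within the list.

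Computed here were peaks per Mb over the segment lengths, medians, distances between neighbours and clusters (gaps of at most 12500 bp), with exact Poisson, conditional and binomial intervals and order-statistic intervals for medians. Peaks are not replicates, so no p-value was computed. In each segment the 3 tallest peaks, the widest peak, the 2 clusters with the most peaks (ties by shorter span), the fullest window and the longest gap are named. The members, lists and measures were chosen with earlier results of these data known. Alternatives covered score cuts, merging, covered bases, a common minimum height, other bounds and joining distances. Functions were tested on simulated data. Genes and sequences were not analysed here, since both tables at hand are on another build. The work was done in Python 3.11.15 (numpy 2.4.6, scipy 1.17.1, pandas 2.3.3; figures with matplotlib 3.10.9).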

Additional observations from a re-analysis of the deposited data

How the results depend on the processing

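No paired analysis was possible because there was 1 library and no test. A density, or a number of windows, counts as moved when it changes by over 1.5 times, a rank when it changes at all, and other values when they leave their own interval. Of 136 alternative values 98 stayed and 38 moved. The ends stayed denser than the interiors under each alternative run for density. Smaller counts after score cuts, wider peaks after merging and larger clustered shares at longer joining distances follow from how those alternatives are built; elsewhere the cause was not tested. Values are given in the order short-arm end, short-arm interior, long-arm interior, long-arm end. The highest-scoring 50% gave densities of 24.6, 8.23, 5.51 and 22.2 peaks per Mb, median heights of 63, 61, 58 and 59.5, median widths of 900, 791, 819 and 796 bp, and clustered shares of 53.7, 44.9, 40.0 and 64.0%. The highest-scoring 25% gave densities of 12.8, 4.47, 2.72 and 10.9, and a ratio of the long-arm to the short-arm end of 0.851. Merging peaks under 500 bp apart gave median widths of 807, 696, 688.5 and 655 bp, a median height of 46 at the long-arm end, and clustered shares of 65.6, 54.8 and 50% in the first 3 segments. Joining at 5 kb gave clustered shares of 50.3, 50.3, 47.6 and 74.3%, and at 25 kb 88.5, 75.9, 70.6 and 95.2%. In covered bases the long-arm end ranked 3 among 22. The minimum height of 26 on every chromosome, and the rank by the less dense end, were chosen after seeing the data. The depth is unknown, so an empty stretch is not shown to be free of KMT2D.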
